A study of Mus musculus with 4 samples.

Results

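The 9 genes described here encode the core of the Bcl2 family, which sets whether the outer mitochondrial membrane opens during apoptosis. They were taken by name from the 32285 genes counted in each file: the anti-apoptotic members Bcl2, Bcl2l1 and Mcl1, the effectors Bax and Bak1, and the BH3-only members Bbc3, Pmaip1, Bcl2l11 and Bid. All 9 passed the minimum of 50 unique molecular identifiers (UMIs, each standing for 1 captured molecule) per file that was set for the comparisons, as did 13133 genes in all. The cells were muscle stem cells of MyoD-KI mice, a genotype in which a tdTomato fluorescent reporter follows the muscle transcription factor MyoD. They had been cultured for 5 days in a serum-rich growth medium and sorted for high reporter signal. There was 1 group, no other genotype or treatment, and the labels give neither the age of the mice nor how many were used. Cells with low reporter signal were not analysed here.

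The 4 files carry replicate numbers 1 to 4, but each pair shares 5946 to 5965 cell barcodes, or 99.9% of the smaller file. In at least 99.6% of 500 cells drawn per pair, a cell correlated better with its own barcode in the other file than with other barcodes. The files were therefore counted as repeat libraries of 1 set of cells (n = 1), and no test was possible between groups of cells. Of 5985 barcodes, 5481 were kept: a kept cell had its barcode in every file, 1000 or more genes, and less than 10% of its UMIs from mitochondrial genes. The files held between 62627341 and 68898900 UMIs, and the median kept cell had between 10369 and 11382 UMIs per file. Levels are in CPM, the UMIs of a gene per 1000000 UMIs summed over a group of cells. Brackets hold 95% Poisson or binomial intervals at the mean count of 1 file. They reflect counting error alone, not differences among animals, cultures or sorts.

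Cells undergo apoptosis through the mitochondria when Bax and Bak1 form pores that release cytochrome c. Bcl2, Bcl2l1 (Bcl-xL) and Mcl1 hold these effectors and the BH3-only proteins in check. The BH3-only proteins bind and neutralise the anti-apoptotic members or activate the effectors directly, and several of their genes respond to stress or to the transcription factor p53. In skeletal muscle, part of the myoblast population dies as cells leave the cycle and differentiate. Much of the control over these proteins lies in their stability and binding, which RNA counts do not show.

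The cells were divided by the level of Myog, the gene of myogenin, which marks entry into differentiation. Below 400 CPM lay 2572 cells (46.9%), between 400 and 1500 CPM lay 579, and at 1500 CPM or more lay 2330 (42.5%). These groups are called Myog-low, Myog-intermediate and Myog-high. Their labels held up against other markers: Pax7, a stem cell gene, stood at 104, 41.8 and 10.4 CPM in the 3 groups, and Myh3, embryonic myosin, at 25.1, 388 and 1393 CPM. Myod1, the gene behind the reporter, stood at 364, 686 and 612 CPM. A second division used the summed CPM of the proliferation genes Mki67 and Top2a, with 3015 cells below 75 CPM (non-cycling) and 2126 at 150 CPM or more (cycling). Cycling cells made up 58.0% of Myog-low, 46.3% of Myog-intermediate and 15.7% of Myog-high cells, so each division was also read within the other. Markers of immune, endothelial and glial cells summed to 0.941, 1.89 and 2.07 CPM in the kept cells. The 5 fibroblast markers summed to 212.7 CPM in Myog-low and 66.0 CPM in Myog-high cells, mostly Col3a1, and only 2 of the 5 reached 1 CPM in either group. The 5 pericyte or smooth muscle markers summed to 624 CPM in Myog-low and 2529 CPM in Myog-high cells, with Acta2, which differentiating muscle cells also express, at 501 and 2507 CPM. The part of such cells in the results was not tested.

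To show the DNA just upstream of members that the results below turn on, the 250 bases before the start site in the RefSeq promoter table (GRCm38.p6) are given for 1 member with a large difference, 1 with a small difference and 1 effector. Capitals mark GGGCGG or its reverse complement CCGCCC, the GC box read by Sp-family factors. They lie on the minus strand at chr1:106714291-106714540 (Bcl2), on the plus strand at chr3:95658471-95658720 (Mcl1) and on the minus strand at chr7:45466899-45467148 (Bax).
Bcl2: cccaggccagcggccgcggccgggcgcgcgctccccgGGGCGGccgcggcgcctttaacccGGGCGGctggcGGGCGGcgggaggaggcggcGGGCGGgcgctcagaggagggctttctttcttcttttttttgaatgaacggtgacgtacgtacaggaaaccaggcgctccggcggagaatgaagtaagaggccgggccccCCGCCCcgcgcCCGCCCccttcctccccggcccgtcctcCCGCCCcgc
Mcl1: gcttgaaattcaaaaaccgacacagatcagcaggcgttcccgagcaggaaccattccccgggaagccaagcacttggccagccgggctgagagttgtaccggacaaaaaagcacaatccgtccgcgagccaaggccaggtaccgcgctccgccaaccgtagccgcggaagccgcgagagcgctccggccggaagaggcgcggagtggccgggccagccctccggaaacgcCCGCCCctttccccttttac
Bax: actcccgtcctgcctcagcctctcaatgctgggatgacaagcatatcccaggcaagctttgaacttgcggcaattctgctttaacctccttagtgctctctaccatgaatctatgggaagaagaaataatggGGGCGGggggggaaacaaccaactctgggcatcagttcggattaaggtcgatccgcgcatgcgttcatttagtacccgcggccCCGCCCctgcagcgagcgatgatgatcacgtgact

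The Bcl2 window holds 7 GC boxes and has a GC content of 74.8%. Mcl1 has 1 box at 64.4% GC and Bax has 2 at 54.0%. Of 32851 windows of this length in the table, 32.7% hold at least 1 GC box on either strand. CANNTG is the general E-box, forms of which are read by MyoD and myogenin among other factors. It is absent from the Bcl2 window and occurs once in each of the others. The match is CACTTG, beginning 180 bases before the Mcl1 start, and CACGTG, beginning 9 bases before the Bax start. CANNTG occurs in 66.2% of all windows. The form CAGCTG, found in 13.0% of all windows, and TATAAA, found in 12.4%, are in none of these 3. Bax alone of the 3 has a match to the p53 response element unit, found in 7.13% of all windows; p53 is a known activator of Bax. The table matched 8 of the 9 members with 13 start sites, and a match of letters is a description and not a binding site.

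Bcl2 differed most between the Myog groups. Bcl2, the founding anti-apoptotic member, spans 176 kb of chromosome 1 (chr1:106538178-106714274, GENCODE M21 on GRCm38). In Myog-low cells its level was 9.27, 9.14, 10.6 and 9.73 CPM in replicates 1 to 4. In Myog-high cells it was 0.589, 0.825, 0.811 and 0.756 CPM. No file of one group came near the other, and the mean went from 9.69 [8.61 to 10.9] over 3.65 CPM in Myog-intermediate cells to 0.745 [0.461 to 1.14]. The ratio of Myog-high to Myog-low cells was -3.70 on the log2 scale [-4.41 to -3.06], or 13.0-fold lower. Only 0.259% of the 13133 genes had a ratio as low or lower. The counts behind it were small, 292.75 UMIs per file in Myog-low and 21 in Myog-high cells.

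Bcl2l1 and Mcl1, the other anti-apoptotic members, differed little. Bcl2l1 (chr2:152780668-152831728) stood at 45.1, 49.9, 48.7 and 48.1 CPM in the 4 files of Myog-low cells. The Myog-high values were 35.0, 36.8, 36.6 and 38.0 CPM, below every Myog-low value, for a log2 ratio of -0.39 [-0.51 to -0.27]. Mcl1 (chr3:95658788-95663176), whose protein is short-lived, had 70.0, 70.0, 69.3 and 72.2 CPM in Myog-low cells. In Myog-high cells it had 58.4, 59.4, 59.3 and 57.1 CPM, a log2 ratio of -0.26 [-0.36 to -0.17]. Neither reached the 1.5-fold minimum. The median of all 13133 genes was a log2 ratio of -0.31, so levels in CPM are read against that shift. Mcl1 and Bcl2l1 lay close to it. Scaled by TMM factors, which set the median gene to about 0, Mcl1 changed sign to 0.05 and Bcl2l1 was at -0.08, while Bcl2 stayed at -3.39. Mcl1 made up 55.0% of the 3 anti-apoptotic genes' summed CPM in Myog-low and 61.1% in Myog-high cells. Bcl2 made up 7.57% and 0.777%.

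**Figure D1:**
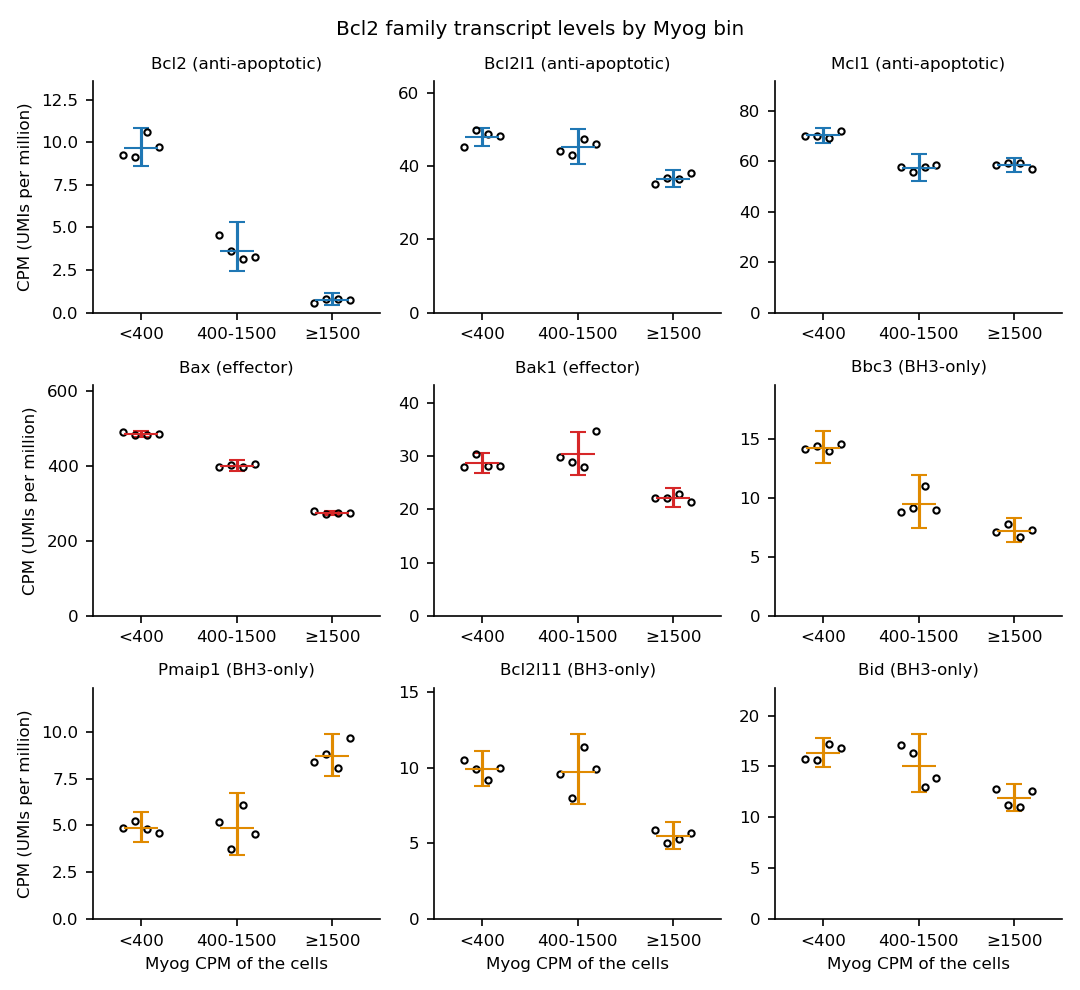
CPM of each of the 9 members in Myog-low, Myog-intermediate and Myog-high cells, with a bar at the mean, its counting interval and 1 point per file; points are repeat libraries of the same cells and not animals. Bcl2 goes from 9.69 to 0.745 CPM and Pmaip1 from 4.88 to 8.73 CPM, while Mcl1 stays between 57.5 and 70.4 CPM.

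Bax, the effector that moves from the cytosol to mitochondria, was lower in Myog-high cells. Its level (chr7:45461697-45466898) was 491, 483, 483 and 484 CPM in the files of Myog-low cells and 279, 271, 274 and 276 CPM in those of Myog-high cells. Myog-intermediate cells lay between them at 401 CPM [387 to 415], and no file of 1 group overlapped another group. The log2 ratio of Myog-high to Myog-low was -0.82 [-0.86 to -0.78], the best counted of the 9, with 7742.75 against 14669 UMIs per file. After TMM scaling it was -0.51, which is under 1.5-fold. Bak1 (chr17:27019810-27029009), the effector that resides on mitochondria, stood at 28.6, 30.4 and 22.2 CPM in Myog-low, Myog-intermediate and Myog-high cells. Its log2 ratio of -0.37 [-0.52 to -0.22] was close to the median gene and went to -0.06 with TMM factors. Bak1 overlaps the whole of its 9200 bases with Ggnbp1 on the other strand, which had 167 UMIs per file, so some of its reads may be assigned to the wrong gene if strand was not used in counting.

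The 4 BH3-only members did not move together. Bbc3 (PUMA; chr7:16308393-16318205), a p53 target, had 14.1, 14.4, 13.9 and 14.6 CPM in Myog-low cells. It had 7.14, 7.77, 6.67 and 7.26 CPM in Myog-high cells, a log2 ratio of -0.98 [-1.23 to -0.74], and remained 1.5-fold lower with TMM factors at -0.67. Bcl2l11 (BIM; chr2:128126038-128162547), which binds all the anti-apoptotic members, had 10.5, 9.94, 9.18 and 9.94 CPM in Myog-low cells. Its Myog-high values were 5.89, 5.02, 5.29 and 5.67 CPM, a log2 ratio of -0.86 [-1.15 to -0.57], which became -0.54 with TMM factors and so missed 1.5-fold. Bid (chr6:120891930-120916853), which links death receptors to mitochondria once caspase-8 has cut it, stood at 16.3, 15.1 and 11.9 CPM from Myog-low to Myog-high, a log2 ratio of -0.46 [-0.66 to -0.25]. It shares 913 bases with Bcl2l13 on the other strand, a gene with 1388 UMIs per file.

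Pmaip1 went the other way. Pmaip1 (NOXA; chr18:66458533-66465565) encodes a BH3-only protein that binds Mcl1 above all. Its level was 4.84, 5.26, 4.84 and 4.58 CPM in the files of Myog-low cells and 8.38, 8.84, 8.04 and 9.64 CPM in those of Myog-high cells, with no overlap. The log2 ratio was 0.84 [0.53 to 1.14], above 89.8% of genes, and 1.15 with TMM factors. Per 100 CPM of Mcl1 there were 6.93 CPM of Pmaip1 in Myog-low and 14.9 CPM in Myog-high cells.

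A gene was called when the groups differed at least 1.5-fold in the same direction in all 4 files. By this rule 1 of the 9 members was higher in Myog-high cells (Pmaip1), where 13.4% of all 13133 genes were, and 4 were lower (Bcl2, Bax, Bbc3 and Bcl2l11), where 36.2% were, so 5 of 9 were called against 49.7% of genes. Read against that background, the counts are not a result about the family as a whole. The members' median log2 ratio was -0.46 and that of all genes -0.31. With TMM factors the calls were Pmaip1 higher and Bcl2 and Bbc3 lower, against 20.1% higher and 25.0% lower among all genes.

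**Figure D2:**
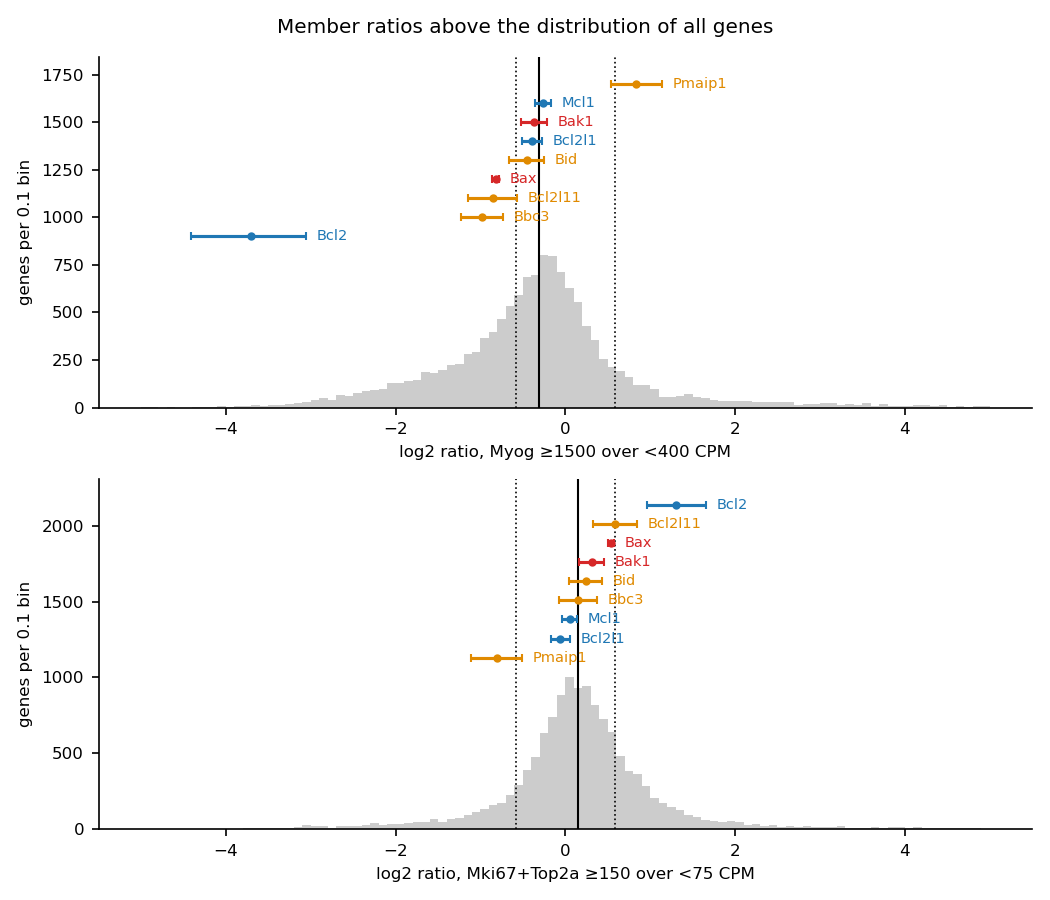
Log2 ratio of Myog-high to Myog-low cells and of cycling to non-cycling cells for the 9 members, with counting intervals, drawn above a histogram of all genes with the median of all 13133 genes (solid line) and the 1.5-fold limits (dotted). Colours mark anti-apoptotic members (blue), effectors (red) and BH3-only members (orange), and genes beyond the axis are placed in its end bins; Bcl2 at -3.70 lies far from the median of -0.31.

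Summed by role, only the effectors stood well below the median gene in Myog-high cells. The anti-apoptotic genes summed to 128, 106 and 95.9 CPM over the Myog groups, the effectors to 514, 431 and 297 CPM, and the BH3-only genes to 45.4, 39.2 and 33.3 CPM. The log2 ratios of these sums were -0.42, -0.79 and -0.45, or -0.11, -0.48 and -0.13 relative to the median gene. The effector sum, which is mostly Bax, was 4.01 times the anti-apoptotic sum in Myog-low cells (3.94 to 4.17 over the files). In Myog-high cells it was 3.1 times that sum (3.02 to 3.20), so the ranges of the files did not overlap. Within non-cycling cells this ratio was 3.47 (3.36 to 3.58) in Myog-low and 2.77 (2.72 to 2.85) in Myog-high cells. Within cycling cells it was 4.17 (4.08 to 4.33) and 4.22 (3.81 to 4.67), so the difference was not seen there. BH3-only genes stood at 0.354 and 0.347 times the anti-apoptotic sum in all Myog-low and all Myog-high cells, with overlapping ranges. The file ranges come from repeat libraries of the same cells and show scatter between libraries alone. Capture of transcripts differs between genes, so these ratios compare groups of cells and not the amounts of the proteins.

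Between cycling and non-cycling cells, Bcl2 and Pmaip1 were the 2 members called. Bcl2 stood at 6.97, 7.71, 8.28 and 7.43 CPM in cycling cells and at 3.33, 2.60, 3.21 and 3.18 CPM in non-cycling cells, a log2 ratio of 1.30 [0.96 to 1.66]. Pmaip1 had 4.28, 4.94, 4.90 and 4.86 CPM in cycling and 8.45, 8.50, 7.72 and 8.64 CPM in non-cycling cells, a log2 ratio of -0.81 [-1.12 to -0.51]. Cycling cells were mostly Myog-low, so this comparison and the one by Myog overlap. Among all genes 23.6% were higher and 12.7% lower in cycling cells (36.3% called). Bcl2l11 at 0.58 [0.32 to 0.85] and Bax at 0.53 [0.50 to 0.57] lay just under the 1.5-fold limit, and both passed it between cells under 30 and cells of at least 300 CPM. Bcl2l11 also passed it without replicate 3 (0.60) or without replicate 4 (0.59). Mcl1 and Bcl2l1, at 0.05 and -0.06, had intervals that spanned 0. The median gene was at 0.15.

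Within Myog-low cells the cycling difference of Bcl2 was not seen. There the level was 9.38 CPM in cycling and 10.7 CPM in non-cycling cells, a log2 ratio of -0.19 [-0.56 to 0.19]. No member was called, against 12.4% of genes higher and 14.3% lower (26.7% called). Bbc3 came nearest, at 12.6 CPM in cycling and 18.0 CPM in non-cycling cells (log2 ratio -0.51 [-0.81 to -0.21]). It was the 1 member called after thinning to equal depth, at -0.60, where 12.1% of genes were higher and 13.2% lower. Bcl2l1 was at -0.41 [-0.57 to -0.25] and Pmaip1 at -0.47 [-0.99 to 0.05]. Among Myog-high cells, by contrast, Bcl2 was higher in cycling than in non-cycling cells, at 2.17 [0.78 to 3.60] on few UMIs. Pmaip1 was lower there, at -0.74 [-1.34 to -0.19].

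Within non-cycling cells the Myog differences were larger for several members. Bcl2 was at 10.7 CPM in Myog-low and 0.443 CPM in Myog-high non-cycling cells, a log2 ratio of -4.60 [-5.74 to -3.63] that rests on 9.5 UMIs per file in the latter. Also called lower were Bbc3 at -1.34 [-1.68 to -1.01], Bcl2l11 at -1.32 [-1.74 to -0.89], Bax at -0.87 [-0.94 to -0.82] and Bcl2l1 at -0.67 [-0.83 to -0.50]. Pmaip1 was called higher at 0.63 [0.18 to 1.10], a call that was lost without replicate 4 (0.49), after thinning (0.51), with wider Myog bins (0.53), as a mean over cells (0.55) and on CPM plus 1 (0.56). These are 5 of 9 members lower and 1 higher, where 38.7% of all genes were lower and 13.0% higher (51.6% called) and the median gene was at -0.36. Bax and Bcl2l1 were not called with TMM factors (-0.48 and -0.27).

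Bcl2l11 did not follow Myog in cycling cells, and it was not alone in this. Its Myog-high to Myog-low log2 ratio there was -0.10 [-0.59 to 0.37]. This interval does not overlap the one in non-cycling cells, but the difference itself could not be tested with 1 sample. Intervals in cycling cells also spanned 0 for Pmaip1 at 0.36 [-0.28 to 0.97], Bak1 at -0.16 [-0.44 to 0.11] and Bid at -0.37 [-0.76 to 0.01]. Among Myog-high cells Bcl2l11 was higher in cycling than in non-cycling cells, with a log2 ratio of 0.96 [0.43 to 1.48]. Bcl2 was still lower with Myog in cycling cells, at -2.23 [-3.27 to -1.35], and Bax at -0.48 [-0.55 to -0.41]. For both Bcl2 and Bax the interval likewise does not overlap the one in non-cycling cells. No median over all genes stands beside the ratios by Myog within cycling cells or by cycling within Myog-high cells. Those ratios are read against 0 alone, and a shift of the median gene there was not tested.

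**Figure D3:**
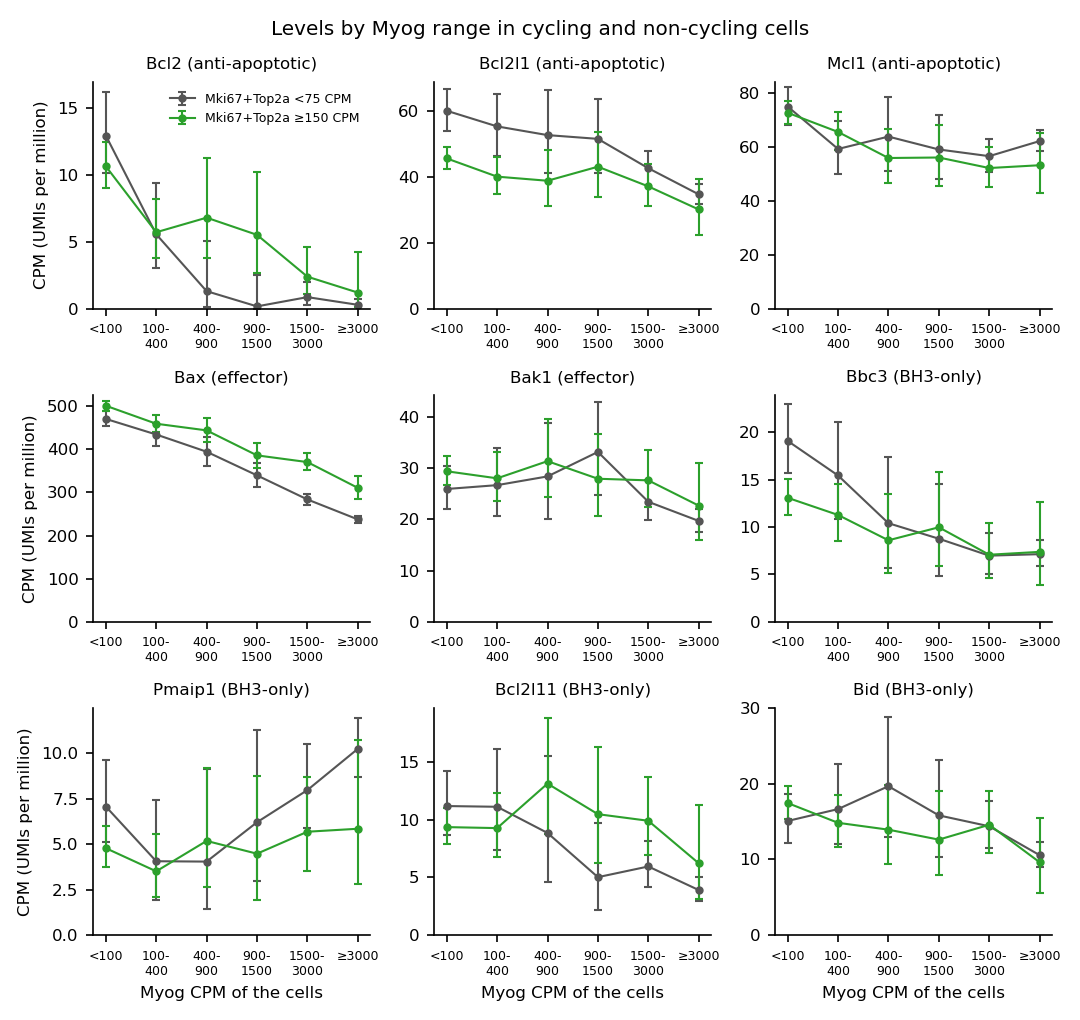
CPM of the members over 6 Myog ranges, drawn separately for non-cycling and cycling cells, with counting intervals. In the range of 900 to 1500 CPM of Myog, Bcl2 is at 5.50 CPM in cycling and 0.161 CPM in non-cycling cells. These levels rest on 10 and 0.25 UMIs per file.

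Finer Myog ranges gave the Bcl2 levels in smaller steps, on few UMIs in the middle ranges. In non-cycling cells it went from 12.9 CPM [10.2 to 16.1] below 100 CPM of Myog to 5.55 [3.02 to 9.38] at 100 to 400 CPM and 1.30 [0.125 to 5.05] at 400 to 900 CPM. Beyond that it stayed at or under 0.852 CPM. In cycling cells it was 10.6 CPM [9.03 to 12.4] in the lowest range and 5.70 [3.81 to 8.19] in the next. It was still 6.79 [3.80 to 11.2] at 400 to 900 CPM and 5.50 [2.66 to 10.2] at 900 to 1500 CPM, where non-cycling cells had 0.161 CPM with an upper limit of 2.53. Only at 1500 to 3000 CPM did cycling cells reach 2.38 [1.08 to 4.58]. The cells behind the middle ranges are few, between 112 and 156 per group. At 400 to 900 CPM the Bcl2 levels rest on 1.75 UMIs per file in non-cycling and 15 in cycling cells. At 900 to 1500 CPM they rest on 0.25 and 10 UMIs per file. Bbc3 in non-cycling cells went down over the same ranges, from 19.1 to 7.13 CPM. Pmaip1 in non-cycling cells was 7.07 CPM in the lowest range, 4.04 at 400 to 900 CPM and 10.2 at 3000 CPM or more.

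Per cell, the same directions held at equal depth. Each of 5197 cells was thinned to 5000 UMIs per file, and 284 shallower cells were left out. A Bcl2 UMI was found in 4.39% [3.60 to 5.29] of Myog-low and 0.245% [0.0850 to 0.550] of Myog-high cells (9.0% and 0.762% without thinning). No cell type known to lack Bcl2 was at hand as a background, and the Myog-high share, at a median depth of 11087 against 10903 UMIs, is the lowest seen. A Bax UMI was found in 86.5% and 69.8% of Myog-low and Myog-high cells, a Bbc3 UMI in 7.27% and 3.72%, and a Bcl2l11 UMI in 4.77% and 2.69%. Pmaip1 went from 2.43% to 3.98%. Mcl1 was found in 28.8% and 24.6% of cells and Bcl2l1 in 20.2% and 16.4%. The intervals of the 2 groups overlapped for Bak1 (13.2% and 10.6%) and Bid (7.15% and 5.77%). Such shares were not computed over all genes, so intervals that lie apart in the other members are not a result about the family. Among cells with a Bcl2 UMI in 1 file, 39.2% had one in another file, and the same share was 94.0% for Bax.

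Among Myog-low cells, Bcl2 also went with Pax7, a split chosen after these levels had been seen. The 1088 Myog-low cells with at least 100 CPM of Pax7 had 15.6, 14.3, 17.3 and 14.9 CPM of Bcl2. The 351 Myog-low cells without any Pax7 UMI had 3.02, 4.20, 5.24 and 3.63 CPM, for a log2 ratio of 1.95 [1.14 to 2.88], above 99.1% of genes. Called higher as well were Bcl2l1 (55.0 against 34.0 CPM, log2 ratio 0.69 [0.40 to 1.00]) and Pmaip1 (5.82 against 3.18 CPM, 0.87 [-0.07 to 1.99]). Bak1 was lower, at 25.6 against 38.7 CPM (-0.60 [-0.90 to -0.28]). Among all genes 25.2% were higher and 2.44% lower (27.6% called), with a median of 0.25. The cells without Pax7 were poor in the nuclear RNA Malat1 in 39.0% of cases, against 4.78% of the others. They also had more Myog (110 against 65.7 CPM), Acta1 (276 against 69.4 CPM) and Myh3 (79.9 against 15.3 CPM). Of them 40.7% were cycling, against 58.9% of the others. This split therefore overlaps the one by Myog, and the part of Myog and of cycling in it was not tested. With TMM factors Bcl2 (1.76), Pmaip1 (0.68) and Bak1 (-0.78) were called and Bcl2l1 (0.51) was not, against 14.9% of genes higher and 6.06% lower. Without Malat1-poor cells Bcl2 (1.69) and Pmaip1 (0.68) kept their calls and Bcl2l1 (0.55) and Bak1 (-0.41) did not. Without replicate 1, Bcl2 (1.44) and Pmaip1 (0.59) were again the 2 called, and Bak1 lost its call whichever file was left out (-0.55 to -0.43).

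RNA quality moved with some of the members. Of the barcodes found in all 4 files, 428 were left out for at least 10% mitochondrial UMIs, with a median of 44.2%. With mitochondrial UMIs removed from the total, Bax stood at 106 CPM in them and 400 CPM in kept cells (log2 ratio -1.91 [-2.33 to -1.52]). Bak1 (-1.11 [-2.52 to -0.00]) and Mcl1 (-0.75 [-1.46 to -0.11]) were also lower, while Bcl2 (2.01 [0.98 to 2.87]) and Bcl2l1 (1.56 [1.18 to 1.91]) were higher. Among all genes 40.5% were higher and 22.8% lower (63.3% called), with a median of 0.51. Gene span moved with these values: the median log2 ratio was -1.24 for genes under 5 kb and 1.74 for genes of 100 kb or more, and Bcl2 is the longest member at 176 kb while Mcl1 (4.39 kb) and Bax (5.20 kb) are the shortest. The intervals of Bcl2 and Mcl1 include the medians of their span ranges. Bax lay below the median of -0.64 for genes of 5 to 10 kb, and Bcl2l1 above that of 1.00 for genes of 30 to 100 kb. The part of span in the members' ratios was not tested further.

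**Figure D4:**
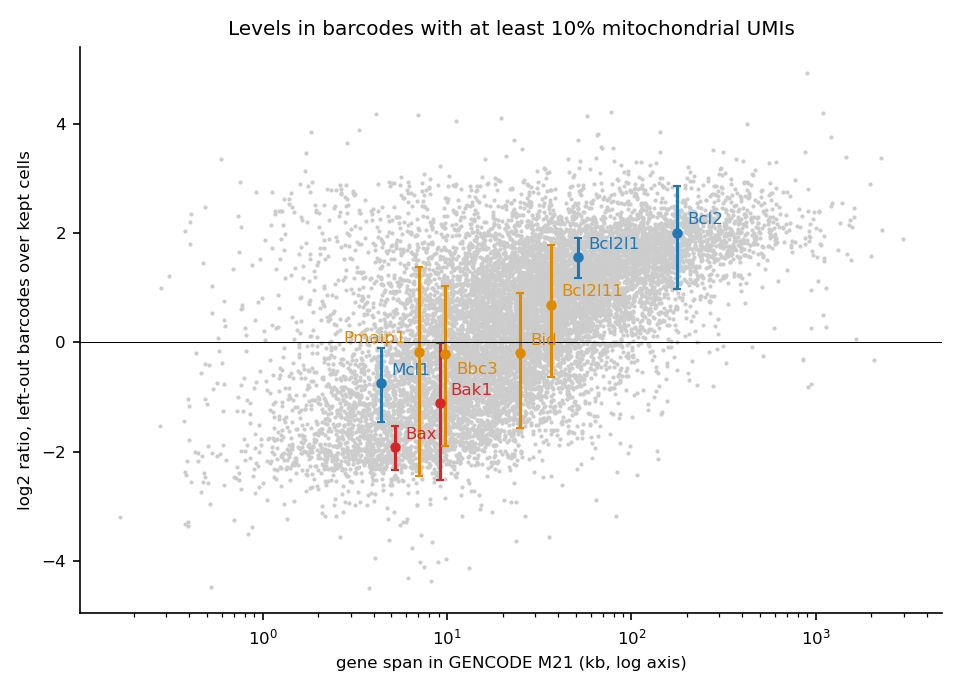
Log2 ratio of mitochondria-rich left-out barcodes to kept cells against gene span in kb (log axis) for the 9 members with counting intervals, over grey points for all genes. The short genes Bax (-1.91) and Mcl1 (-0.75) lie low and the long genes Bcl2 (2.01) and Bcl2l1 (1.56) lie high. Bax lies below the median of -0.64 for genes of 5 to 10 kb, and Bcl2l1 above that of 1.00 for genes of 30 to 100 kb.

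Malat1-poor cells among the kept cells also differed by span, with a median log2 ratio of 0.25 for genes under 5 kb and -1.32 for genes of 100 kb or more. In the 591 cells with under 1500 CPM of Malat1, Bak1 was called higher (0.72 [0.51 to 0.92]) and Bcl2 (-0.89 [-1.71 to -0.18]) and Pmaip1 (-1.10 [-1.89 to -0.43]) lower. The Bcl2 interval includes the median of its span range. Bak1 (9.20 kb) and Pmaip1 (7.03 kb) are both short, and the median for genes of 5 to 10 kb was 0.16. Bak1 lay above that median and Pmaip1 below it. Among all genes 5.43% were higher and 39.1% lower (44.5% called), with a median of -0.36. Mcl1, the shortest member, was at -0.19 and not called. Without replicate 3 (-0.61) or without replicate 4 (-0.59), Bcl2l1 was called lower as well. Such cells made up 13.5% of Myog-low and 7.30% of Myog-high cells, and without them the log2 ratio by Myog was -3.92 for Bcl2 and 0.80 for Pmaip1. The median Myog ratio was -0.24 for genes under 5 kb and -0.44 for genes of 100 kb or more.

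Beyond the 9 members, the genes around them were taken as fixed lists. Of 81 listed genes tested, 41 were called between Myog-high and Myog-low cells, 7 higher and 34 lower. With TMM factors the split was 17 higher and 24 lower. Among all 13133 genes 13.4% were higher and 36.2% lower (20.1% and 25.0% with TMM factors), so the listed genes as a whole were called about as often as other genes. Each list below is to be read beside those shares. In the death receptor pathway 7 of 9 genes were lower and none higher (median -1.22; with TMM factors 5 lower, 1 higher, median -0.91). They include the receptors Fas (7.49 to 2.10 CPM, log2 ratio -1.84), Tnfrsf1a (34.1 to 11.5 CPM, -1.57) and Tnfrsf10b (6.63 to 2.61 CPM, -1.35) and the adaptor kinase Ripk1 (18.6 to 5.50 CPM, -1.76). The apoptosome and caspase list had 7 of 15 lower and none higher. Named by size these are the initiator Casp8 (-2.10), Apaf1 (-1.73), which assembles the apoptosome, Casp6 (-1.49) and Casp2 (-1.43). With TMM factors 6 of the 15 were lower and 4 higher, and neither split stands far from the shares over all genes.

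Among other Bcl2 family genes, 7 of 15 were expressed enough to test. Bok, an effector-like member, was lower at 57.9 to 12.8 CPM (log2 ratio -2.18 [-2.35 to -2.01]). Bnip3, a mitophagy receptor that hypoxia induces, was higher at 31.0 to 91.0 CPM (1.55 [1.44 to 1.66]). Bad (-0.89) and Bcl2l12 (-0.85) were lower, but not with TMM factors (-0.58 and -0.54). Of the inhibitor of apoptosis genes 3 of 5 were lower, among them Birc5 (-1.58), which is also a mitotic gene, and Xiap (-0.86), which was not called with TMM factors (-0.55). None of the 8 genes of the mitochondrial pore and channel list was called, and their median was 0.00; with TMM factors 1 was higher and the median was 0.32.

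Trp53, the gene of p53, was lower in Myog-high cells, at 125 to 57.8 CPM (log2 ratio -1.11), and 9 of the 15 genes on its list were lower, itself included (7 with TMM factors). They include Gtse1 (-2.06), Sesn2 (-1.58) and Zmat3 (-1.43). Cdkn1a (p21), a cell cycle inhibitor that myogenic factors also induce, was the 1 gene higher, from 310 to 2200 CPM (2.83 [2.80 to 2.86]). Bbc3 and Bax, which p53 activates too, were lower as given above, and Pmaip1 was higher. On the integrated stress response list, whose factor Atf4 can activate Pmaip1 and Bbc3, 5 of 8 genes were higher and none lower (median 0.70; 6 with TMM factors). Among those with at least 200 UMIs per file were Ppp1r15a (11.7 to 22.0 CPM, 0.90), Chac1 (5.60 to 10.3 CPM, 0.87), Asns (66.7 to 113 CPM, 0.76) and Eif4ebp1 (199 to 311 CPM, 0.64). Atf4 itself was at 115 and 114 CPM and Ddit3 at 7.27 and 6.59 CPM.

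Of the ubiquitin regulators of Mcl1, 1 of 4 was lower (Btrc, -0.65, not called with TMM factors at -0.34). Of the Foxo factors, activators of Bcl2l11, 1 of 3 was lower (Foxo3, -0.77), whereas with TMM factors Foxo3 (-0.46) was not called and 1 of the 3 was higher. Immediate early genes, a sign of stress during handling, had 3 of 7 lower, among them Ier3 (-2.52) and Ier2 (-0.90), and none higher, but 3 lower and 2 higher with TMM factors.

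**Figure D5:**
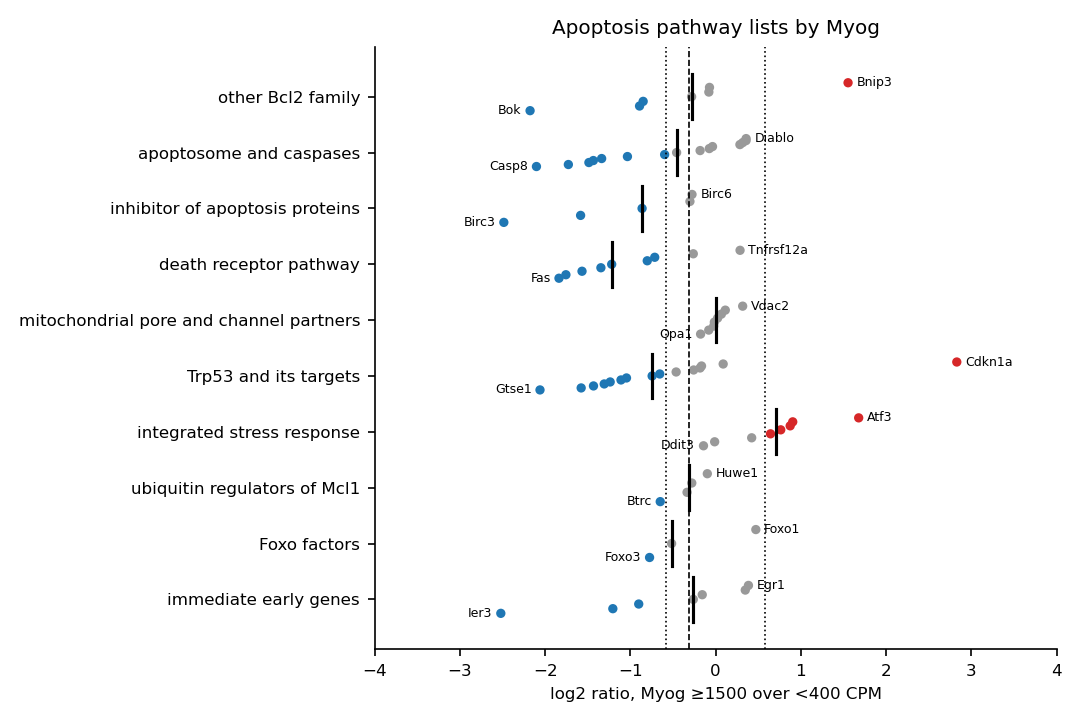
Log2 ratio of Myog-high to Myog-low cells for each tested gene of the lists, with red for called higher, blue for called lower, grey for not called, a black bar for the list median and a dashed line for the median of all genes. The death receptor list has its median at -1.22 and the integrated stress response list at 0.70.

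Between cycling and non-cycling cells, 23 of the listed genes were called, 17 higher and 6 lower (13 and 6 with TMM factors). This is a smaller share than the 36.3% called among all genes, of which 23.6% were higher and 12.7% lower. The caspase list had 5 of 15 higher, including Casp8 (1.57), Casp2 (1.05) and Apaf1 (0.97). Birc5 was higher at 3.70 and Gtse1 at 3.88, both genes of mitosis, followed by Bok (1.96), Fadd (1.40), Trp53 (0.96), Bcl2l12 (0.82), Xiap (0.76), Ripk1 (0.76) and Zmat3 (0.71, not called with TMM factors). Lower were Cdkn1a (-1.82), Bnip3 (-1.12), Ppp1r15a (-0.81), Egr1 (-0.66) and Foxo1 (-0.61). Cycling cells were mostly Myog-low. Within Myog-low cells, 9 of the 81 listed genes were higher and 10 lower, against 12.4% and 14.3% of all genes. Casp8 (0.65), Birc5, Gtse1, Bok and Fadd were still called higher there. Casp2 (0.32), Apaf1 (0.03), Trp53, Bcl2l12 (0.42), Xiap (0.28), Ripk1 and Zmat3 were not. Cdkn1a, Bnip3 and Foxo1 were still called lower, and Ppp1r15a and Egr1 were not.

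Over the 12 groups made from 6 Myog ranges and both cycling bins, the genes with the pattern most like each well-counted member were found among 6802 genes. Bax was closest to Fam129b, Hoxc5 and Pkm, with Pearson r from 0.992 to 0.996. Bcl2l1 was closest to Ndrg2, Atg10 and Enc1 (0.972 to 0.979). Bak1 was closest to 5730455P16Rik, Zcchc4 and Birc6 (0.913 to 0.929), and Mcl1, the flattest of the 4, to Nfe2l2, Fdx2 and Arpc2 (0.903 to 0.906). The groups share libraries and were cut by Myog and by Mki67 and Top2a, so these values describe likeness only.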

How the data were processed

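Single cells of 1 group were profiled with the 10x Genomics 3-prime v3.1 kit, per the labels' protocols. The authors deposited unnormalised UMI counts for every gene and barcode; the file headers name Cell Ranger 7.1.0, while the submitters' processing notes name Cell Ranger 3.1.0 and the builds mm10 and GRCm39. The annotation, barcode calling and the use of intronic reads and strand are not given in the sources used here; intronic reads, if counted, raise long genes. Gene positions are from GENCODE M21 (GRCm38), joined on the Ensembl identifier for 32158 of 32285 genes (99.6%).

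The 4 files are repeat libraries of the same cells, so values were computed per file and averaged, ratios are plain ratios of mean CPM, and no p-value was computed. Clopper-Pearson intervals were used for shares and conditional binomial intervals for ratios. No doublet caller was run; removal of the 5% of cells with the most UMIs was an alternative. TMM factors came from edgeR 4.0.16, which was used for nothing else, and the other steps from Python 3.11.15 with numpy 2.4.6 and scipy 1.17.1. The scripts were checked on simulated data.

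The members, lists and bins were chosen with earlier results of these data known, and the Pax7 split after seeing the levels. All 9 members are named. From each list up to 4 genes with the largest called ratios and at least 200 UMIs per file are named, with Trp53, Atf4 and Ddit3 added after their values were seen; 1 gene that the rule names is not reported here. The likeness rule took members with at least 1000 UMIs per file and the 3 most alike genes of at least 1000 UMIs, without Myog, Mki67 and Top2a, on log2 of CPM plus 1.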

Additional observations from a re-analysis of the deposited data

Results flagged for a closer look

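Each member's 4 file values were screened in each group of cells for 1 file far from the others, meaning a gap to its neighbour that exceeds Dixon's critical value for 4 samples. This marked 5 of 90 values, where chance marks about 5% of groups. Bcl2l1 in all kept cells stood at 40.7 CPM in replicate 1, under the other files. Bak1 in Myog-low cells stood at 30.3 CPM in replicate 2, and Bbc3 in Myog-intermediate cells at 11.0 CPM in replicate 3, both above the others. Pmaip1 in cycling cells was lowest in replicate 1 at 4.28 CPM. The Pmaip1 log2 ratio of Myog-high to Myog-low cells was highest in replicate 4, at 1.07. The files are repeat libraries of the same cells, so these values describe libraries and not animals. No member's ratio had opposite directions in all files of the cycling and non-cycling strata.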

How the results depend on the processing

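The number of called members mostly stayed within 1.5 times of the reported number. Of 123 counts and background shares recomputed under alternatives, 110 did so, and no gene with a recomputed ratio that was called changed direction under the alternatives run. Ratios near 0 did change sign, such as Mcl1 by Myog (to 0.06 with median-ratio size factors) and Bak1 by Myog within non-cycling cells (to 0.06 with TMM factors). The 5 members called by Myog became 3 under either rescaling, by TMM or by median-ratio size factors. At a 2-fold limit, 1 member was called by Myog, 1 by cycling, 3 by Myog within non-cycling cells and 1 by Pax7 within Myog-low cells, and the listed genes went from 41 to 26 by Myog and from 23 to 8 by cycling. Among all genes, 8.80% were higher and 22.2% lower by Myog at 2-fold, and 11.5% and 7.19% by cycling. These shares were 8.61% and 25.0% by Myog within non-cycling cells and 8.31% and 0.90% by Pax7 within Myog-low cells. With cycling bins at 30 and 300 CPM, 4 members were called by cycling (all genes: 26.5% higher, 13.5% lower). After thinning to 5000 UMIs, 1 member was called by cycling within Myog-low cells, where 0 had been. Among all genes 12.1% were then higher and 13.2% lower. With Malat1 under 750 CPM, 5 members were called in Malat1-poor cells, where 3 had been, against 7.49% of genes higher and 44.5% lower. In the Pax7 comparison, where 4 were called, 2 were called without Malat1-poor cells, against 12.4% of genes higher and 3.14% lower. Leaving out 1 file gave 2 to 3 calls, with 2 calls when replicate 1 was left out. The shares over all genes were then 21.9% to 23.7% higher and 2.35% to 2.57% lower. The Bcl2 log2 ratio by Myog lay between -4.86 (wider Myog bins) and -2.61 (CPM plus 1). Cycling bins agreed between files for 81.8% to 83.0% of cells, and Bcl2, Bcl2l11, Bbc3 and Pmaip1, with the fewest UMIs per file in Myog-high cells, are the most limited by counting depth. No paired analysis was possible because all 4 replicate numbers belong to 1 group and to the same cells.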
